A study of Mus musculus with 48 samples.

Results

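The Toll-like receptors and their co-receptor gene Cd14 were followed in liver RNA of mice with a defect in LXRα, the nuclear receptor that senses oxysterols and switches on cholesterol export and fatty acid synthesis. The 10 genes, of 55416 counted, are Cd14, Ly96 (encoding MD-2), Tlr1, Tlr2, Tlr4, Tlr7, Tlr8, Tlr9, Tlr13 and Myd88, each found by the Ensembl identifier of its symbol. They were chosen with their levels across the genotypes known, so their differences between genotypes, and whether these passed the threshold used for all genes, are a description and not a test of them. The knock-in study compared DN:WT (LXRα+/+), DN:HET (LXRα+/W441R) and DN:HOM (LXRαW441R/W441R) mice, in which a tryptophan-to-arginine change makes the receptor dominant negative. The knockout study compared KO:WT (LXRα+/+), KO:HET (LXRα+/-) and KO:HOM (LXRα-/-) mice. Each of the 6 groups had 8 mice, labelled as C57Bl/6J, and no group was left on chow: all were given a western diet with 0.2% cholesterol for 8 weeks, from 8 to 16 weeks of age. The alleles were constitutive, so every cell type carried them, and the studies were bred as separate colonies with wild-type controls of their own. The knock-in mice were described as male and the knockout study as a repeat of that design, and Y-linked Ddx3y had at least 63.3 CPM (read counts scaled to library size) in all 48 livers.

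Toll-like receptors are membrane proteins of innate immune cells that recognise microbial lipids, proteins and nucleic acids. Tlr1, Tlr2 and Tlr4 act at the cell surface, whereas Tlr7, Tlr8, Tlr9 and Tlr13 read RNA or DNA in endosomes. CD14 hands lipopolysaccharide to the TLR4 and MD-2 complex and also serves TLR2, and MyD88 is the adaptor through which nearly all of them signal to NF-κB. In liver they are mostly made by resident Kupffer cells, recruited monocytes and macrophages, dendritic cells and B cells, although endothelial and stellate cells carry some, hepatocytes can also make CD14, and LXR agonists are known to dampen Toll-like receptor output in macrophages.

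Sequence upstream of the start was available for 6 of the 10 genes, in 7 RefSeq entries of the build GRCm38.p6; Cd14, Ly96, Tlr4 and Tlr7 were not in the table used. The 250 bases before the start are printed, 5′ to 3′ on the strand of the gene, for 4 receptors that were higher in both homozygous groups and whose entries held a motif match. The entry of the adaptor Myd88, which moved little with the scaling used and held none, is printed as well. Tlr8, also higher in both homozygous groups, and the other Tlr1 entry held no match and are not printed. Capitals mark letters matching 1 of 3 motifs searched on both strands: GAGGAAG, the core bound by the myeloid factor PU.1, TGANTCA for AP-1, and GGGA and CC with any 4 bases between them for NF-κB. No match overlapped another.
Tlr1 (chr5:64933559-64933808, minus strand): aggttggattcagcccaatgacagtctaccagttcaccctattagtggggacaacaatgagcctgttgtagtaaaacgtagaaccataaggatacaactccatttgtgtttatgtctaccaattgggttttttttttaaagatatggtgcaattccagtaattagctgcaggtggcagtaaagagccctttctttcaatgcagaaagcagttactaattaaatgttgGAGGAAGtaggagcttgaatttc
Tlr13 (chrX:106143025-106143274, plus strand): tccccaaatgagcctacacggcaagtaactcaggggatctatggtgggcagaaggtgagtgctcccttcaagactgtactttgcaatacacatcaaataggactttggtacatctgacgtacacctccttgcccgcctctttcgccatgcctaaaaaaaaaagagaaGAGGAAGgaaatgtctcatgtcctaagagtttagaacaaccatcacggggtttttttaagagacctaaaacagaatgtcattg
Tlr9 (chr9:106222348-106222597, plus strand): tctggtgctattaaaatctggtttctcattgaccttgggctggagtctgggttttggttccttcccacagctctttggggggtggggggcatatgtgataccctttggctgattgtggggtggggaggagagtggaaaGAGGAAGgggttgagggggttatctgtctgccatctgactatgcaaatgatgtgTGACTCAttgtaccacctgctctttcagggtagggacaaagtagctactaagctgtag
Tlr2 (chr3:83841609-83841858, minus strand): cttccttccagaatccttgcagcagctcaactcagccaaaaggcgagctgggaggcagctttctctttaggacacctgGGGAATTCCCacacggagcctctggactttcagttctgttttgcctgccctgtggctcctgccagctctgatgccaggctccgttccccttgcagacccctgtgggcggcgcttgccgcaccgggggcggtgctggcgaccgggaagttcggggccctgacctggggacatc
Myd88 (chr9:119340019-119340268, minus strand): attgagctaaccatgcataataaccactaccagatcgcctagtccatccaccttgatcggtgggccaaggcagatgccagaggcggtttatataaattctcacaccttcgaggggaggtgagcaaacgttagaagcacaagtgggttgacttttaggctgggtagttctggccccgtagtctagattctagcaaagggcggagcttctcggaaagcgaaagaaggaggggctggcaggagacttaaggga
GAGGAAG lay from -23 to -17 in Tlr1, from -83 to -77 in Tlr13 and from -112 to -106 in Tlr9, counted from the base before the start as -1. It occurred in 10.6% of all 32851 promoters of this length. Tlr9 also held TGACTCA from -58 to -52, a motif of 6.75% of promoters, and Tlr2 held GGGAATTCCC from -172 to -163, a form of the letters found in 17.6% of them. Neither Myd88, Tlr8 nor the other Tlr1 entry held any of the 3, which says only that these letters were not in the window.

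Reads on genes ranged from 5332897 to 16961379 per liver (median 15879972), and 2 livers, KO:HET animal 3 and KO:HOM animal 17, had under 10000000. Hepatocyte markers summed to between 44694 and 109680 CPM over the 46 livers. Nr1h3, which encodes LXRα, had 25.3 to 31.1 CPM in KO:HOM and 81.5 to 108 CPM in KO:WT livers. In the knock-in study it had 68.5 to 77.4 CPM in 7 DN:HOM livers and 82.1 to 96.9 CPM in 7 DN:WT livers. The library labelled DN:WT animal 10 had 71.3 CPM and the library labelled DN:HOM animal 12 had 86.9 CPM, each within the range of the opposite group; whether the 2 labels were exchanged was not tested. Both were absent from a source table of bile acid gene expression, and whether other analyses of the study kept them was not checked. The values here are over the other 46 livers, and the fitted differences, counts and correlations of the 10 genes are also given with all 48, or with the values of these 2 livers beside the ranges.

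Cd14 had the largest fitted difference of the 10 in DN:HOM livers, though not in KO:HOM or DN:HET livers. It lies on chromosome 18 of GRCm39 (36858120 to 36859851, minus strand, ENSMUSG00000051439). In DN:HOM livers its level ranged from 31.3 to 152 CPM with a median of 73.4 CPM (mean 78.0 ± 38.0, SD, n = 7). In DN:WT livers it ranged from 0.954 to 4.54 CPM with a median of 1.67 CPM (mean 2.08 ± 1.26, SD, n = 7). Every DN:HOM liver among the 46 was thus above every liver of the other 5 groups, the highest of which was a KO:HOM liver at 22.98 CPM. KO:HOM livers spread from 1.73 to 22.98 CPM (median 7.77) and overlapped KO:WT livers at 0.825 to 4.18 CPM (median 2.34). The log2 fold change was 5.23 (SE 0.53) in DN:HOM and 1.89 (SE 0.47) in KO:HOM, each against wild-type livers of its own study. The difference between these effects was 3.35 (SE 0.69). DN:HET livers ran from 1.21 to 14.9 CPM (median 2.71) and KO:HET livers from 1.05 to 5.06 CPM (median 2.31), both overlapping their wild-type groups. In bulk liver RNA, more cells of a type and more RNA of a gene per cell cannot be told apart.

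DN:WT animal 10 had 98.4 CPM of Cd14 and DN:HOM animal 12 had 2.17 CPM. With both kept, the DN:HOM log2 fold change of Cd14 fell to 2.25 (SE 0.69), and the difference from KO:HOM to 0.37 (SE 1.03). The DN:HET value of Cd14, 1.24 (SE 0.51) over the 46 livers, turned to -1.54 (SE 0.72), and neither passed the threshold. The size of the Cd14 difference between the studies therefore depended on these 2 livers, and every value with all 48 takes their labels as given.

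**Figure D1:**
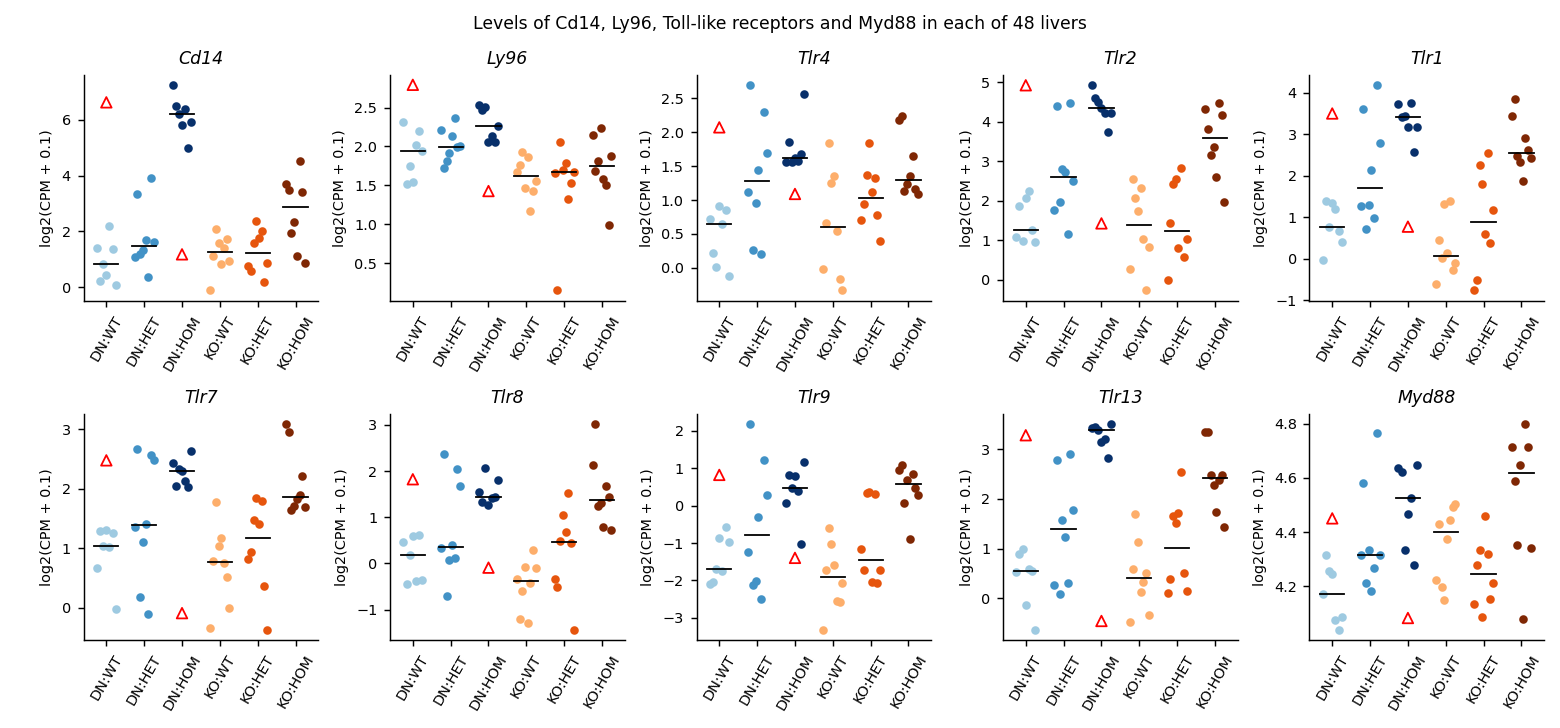
Level of each of the 10 genes, as log2(CPM + 0.1) with an axis of its own for each gene, in every liver by group. Dots are livers, black lines are medians of the 46 livers and red triangles are DN:WT animal 10 and DN:HOM animal 12; the 7 DN:HOM dots of Cd14, at 31.3 to 152 CPM, stand above all other dots.

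Among the partners of CD14 in the lipopolysaccharide receptor, Tlr4 rose by less in DN:HOM livers and Ly96 by little. Tlr4 encodes the signalling receptor itself (chromosome 4 of GRCm39, 66745783 to 66849936, plus strand). It had 2.85 to 5.83 CPM in DN:HOM (median 2.98) and 0.818 to 1.78 CPM in DN:WT livers (median 1.47), ranges that did not meet, with a log2 fold change of 1.38 (SE 0.33), or 0.94 (SE 0.33) with all 48 livers. In KO:HOM livers it had 2.04 to 4.64 CPM (median 2.35), within reach of the 0.695 to 3.49 CPM of KO:WT livers (median 1.42), with a log2 fold change of 0.79 (SE 0.31) that did not pass the threshold. Gm69151 overlaps exons of Tlr4 on the opposite strand, and counts of the gene's own strand were used. Ly96, whose product MD-2 binds the lipid (chromosome 1, 16758275 to 16779961), stayed near its wild-type level with the scaling used. Scaled by library size alone, it averaged 6.23 CPM in DN:HOM and 3.49 CPM in DN:WT livers, so its steadiness depended on the scaling. The values that follow are with the scaling used. It had 4.04 to 5.69 CPM in DN:HOM livers and 2.76 to 4.85 CPM in DN:WT livers, which overlap, with a log2 fold change of 0.40 (SE 0.17). In KO:HOM livers it had 1.88 to 4.64 CPM against 2.16 to 3.70 CPM in KO:WT livers, with a log2 fold change of 0.15 and an interval of -0.17 to 0.47 (95%). The small DN:HOM value of Ly96 passed the threshold over the 46 livers, but not with all 48 (0.15, SE 0.18), without the low-count filter, or without DN:WT animal 5 or DN:WT animal 13.

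Tlr2 and Tlr1, which pair on the cell surface to recognise bacterial lipoproteins, were higher in both homozygous groups. Tlr2 (chromosome 3, 83743576 to 83749074) had 13.3 to 30.4 CPM in DN:HOM livers (median 20.4) and 1.84 to 4.604 CPM in DN:WT livers (median 2.28). KO:HOM livers had 3.83 to 22.2 CPM (median 12.1) and KO:WT livers 0.730 to 5.78 CPM (median 2.60). The DN:HOM and DN:WT ranges were apart, whereas KO:HOM and KO:WT overlapped at the low end. The log2 fold change of Tlr2 was 2.88 (SE 0.47) in DN:HOM and 2.13 (SE 0.44) in KO:HOM. Keeping animals 10 and 12, the DN:HOM value was 1.55 (SE 0.53), below that of KO:HOM. Tlr1 (chromosome 5, 65082022 to 65090941) had 5.82 to 13.4 CPM in DN:HOM (median 10.7) and 0.876 to 2.55 CPM in DN:WT livers (median 1.60). In the knockout study it had 3.59 to 14.4 CPM in KO:HOM (median 5.802) and 0.550 to 2.51 CPM in KO:WT livers (median 0.952). Its log2 fold changes, 2.55 (SE 0.47) and 2.499 (SE 0.45), differed by 0.05 (SE 0.67) over the 46 livers, and neither pair of groups overlapped. Keeping animals 10 and 12, the DN:HOM value of Tlr1 was 1.61 (SE 0.49), a difference from KO:HOM of -0.89 (SE 0.71).

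Of the endosomal receptors, which all lie on chromosome X apart from Tlr9, Tlr13 showed the clearest separation in the knock-in study. Tlr13, the mouse sensor of bacterial ribosomal RNA (chromosome X, 105186810 to 105204533), had 6.95 to 11.2 CPM in DN:HOM livers (median 10.3) and 0.545 to 1.88 CPM in DN:WT livers (median 1.36). KO:HOM livers had 2.59 to 10.1 CPM (median 5.27) and KO:WT livers 0.619 to 3.14 CPM (median 1.24). DN:HOM livers were closely grouped and apart from DN:WT livers, while a low KO:HOM liver reached into the KO:WT range. The log2 fold changes were 2.90 (SE 0.41) in DN:HOM and 2.03 (SE 0.39) in KO:HOM, and with all 48 livers Tlr13 had 1.84 (SE 0.48) in DN:HOM. Tlr7 and Tlr8, neighbouring receptors of single-stranded RNA, moved by about as much in KO:HOM as in DN:HOM livers or by more. Tlr7 had 3.995 to 6.10 CPM in DN:HOM, 0.886 to 2.37 CPM in DN:WT, 3.04 to 8.39 CPM in KO:HOM and 0.688 to 3.35 CPM in KO:WT livers. Its log2 fold change was 1.35 (SE 0.35) in DN:HOM and 1.46 (SE 0.33) in KO:HOM. Tlr8 had 2.30 to 4.08 CPM in DN:HOM, 0.637 to 1.43 CPM in DN:WT, 1.54 to 8.01 CPM in KO:HOM and 0.307 to 1.13 CPM in KO:WT livers. Its log2 fold change was 1.51 (SE 0.41) in DN:HOM and 2.26 (SE 0.40) in KO:HOM, and its homozygous livers were above all wild-type livers in both studies. In DN:HOM, all 48 livers gave 0.86 (SE 0.37) for Tlr7 and 0.98 (SE 0.41) for Tlr8.

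Tlr9, the receptor of unmethylated CpG DNA (chromosome 9, 106099797 to 106104082), had the lowest level of the 10. Its counts were 2 to 8 reads in DN:WT and 0 to 8 reads in KO:WT livers, and 3 reads, the limit that a count of 0 allows in 1 KO:WT liver, would be 0.193 CPM there (unscaled, counting error only). DN:HOM livers had 0.395 to 2.17 CPM (median 1.28), which overlapped DN:WT livers at 0.135 to 0.571 CPM (median 0.209). KO:HOM livers had 0.441 to 2.03 CPM (median 1.41), which overlapped KO:WT livers at 0 to 0.558 CPM (median 0.170). The log2 fold changes were 2.13 (SE 0.61) and 2.68 (SE 0.62). With all 48 livers the DN:HOM value was 1.29 (SE 0.58) and no longer passed the threshold.

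Myd88, the shared adaptor (chromosome 9, 119165000 to 119170486, minus strand), was steady beside its receptors. It had 19.3 to 24.98 CPM in DN:HOM (median 22.9) and 16.4 to 19.8 CPM in DN:WT livers (median 17.9), with 16.8 to 27.7 CPM in KO:HOM (median 24.5) and 17.7 to 22.6 CPM in KO:WT livers (median 21.04). Homozygous and wild-type ranges overlapped in both studies. The log2 fold change was 0.35 (SE 0.09) in DN:HOM, which passed the threshold (0.25, SE 0.09, with all 48 livers), and 0.19 (SE 0.09) in KO:HOM, which did not. Exons of Acaa1a, a peroxisomal thiolase gene, overlap Myd88 on the opposite strand. Counted on both strands the calls of Myd88 were the same.

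**Figure D2:**
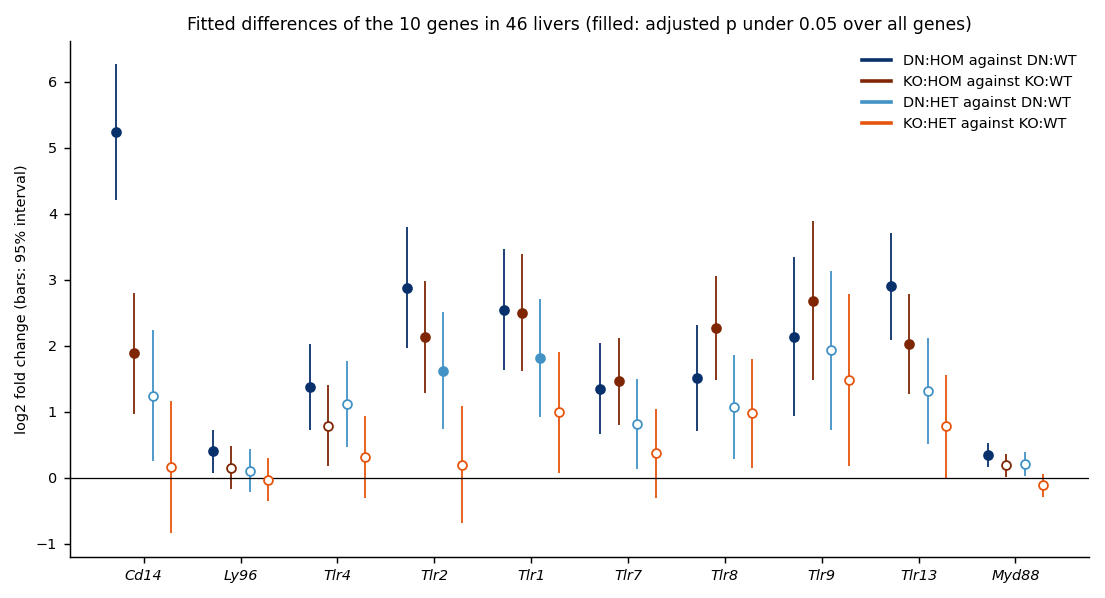
Log2 fold change of each gene against the wild-type group of its own study, over 46 livers, with bars of the 95% interval. Filled points passed the threshold over all genes tested and open points did not; Cd14 in DN:HOM, at 5.23, stands above its KO:HOM value of 1.89.

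All 10 genes passed the threshold in DN:HOM livers, all of them higher, where 29.1% of the 15711 genes tested were called higher. In KO:HOM livers 7 of the 10 were called higher (not Ly96, Tlr4 or Myd88) and none lower, against 11.5% and 7.87% of all genes. These counts restate how the genes were chosen, and nothing is read from them. Over all 48 livers 8 of the 10 were called in DN:HOM (23% of genes called higher) and 6 in KO:HOM (8.79% called higher), where Cd14 was no longer called. The median log2 fold change of the 10 was 1.82 in DN:HOM and 1.96 in KO:HOM livers, beside -0.01 and -0.02 over all genes tested. Over the 48 these medians of the 10 were 1.13 and 1.96. Homozygous and wild-type livers did not overlap for 7 of the 10 in the knock-in study (17.8% of all genes, in the same direction) and for 2, Tlr1 and Tlr8, in the knockout study (2.18% of all genes). With animals 10 and 12 included, none of the 10 separated DN:HOM from DN:WT livers (0.0509% of all genes). Of the differences between the studies' homozygous effects, that of Cd14 was past the threshold over the 46 livers (34.7% of all genes in either direction), which again restates the choice of genes, and none of the 10 was with all 48 (10.5%, with 4.05% more upward in DN:HOM). The intervals of the differences were wide for the receptors, from -1.27 to 1.36 for Tlr1, from -0.48 to 1.97 for Tlr2 and from -1.87 to 0.37 for Tlr8 (log2, 95%), so that like responses in the studies are not shown either.

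Heterozygous livers were uneven. In DN:HET livers Tlr1 and Tlr2 passed the threshold, with log2 fold changes of 1.81 (SE 0.46) and 1.62 (SE 0.46), where 2.23% of genes were called higher and 0.07% lower. Neither did with all 48 livers (0.25% of genes called), where Tlr1 had 1.05 (SE 0.49) and Tlr2 0.48 (SE 0.53). Neither did when DN:HET and DN:WT were fitted alone. DESeq2 called 5 of the 10, where it called 617 of all 15711 genes. With either tool 9 of the 10 had an unadjusted p under 0.05, as had 2084 (edgeR) and 2087 (DESeq2) of all genes. Animals 4 and 22 each had 9 of the 10 genes above every DN:WT liver and animal 29 had 8, whereas the other 5 DN:HET livers had 0 to 6. In animal 22 Tlr1 stood at 18.2 CPM and in animal 4 at 12.1 CPM, as high as in DN:HOM livers or higher, while the other DN:HET livers had from 1.55 (animal 8) to 6.85 CPM (animal 29). Tlr9 was at 4.44 CPM in animal 4, above all other livers of the series. Cd14 in the same livers was 14.9 and 10.1 CPM, below all 7 DN:HOM livers. In KO:HET livers none of the 10 passed the threshold (0.0191% of genes called, 0.0127% higher and 0.00636% lower), nor with all 48 livers (0.0192% called). Over the 46 livers edgeR gave 3 of the 10 an unadjusted p under 0.05, and 981 of all 15711 genes. DESeq2 called none of the 10 and 10 of all genes, with 4 and 989 under 0.05 before adjustment. KO:HET animals 9, 6 and 4 had 6, 5 and 4 of the 10 above every KO:WT liver, and the others 0 to 2. KO:HOM livers also differed among themselves, with 10 of the 10 above every KO:WT liver in animal 8 and 3 of the 10 in animal 30. The share of all genes above every wild-type liver was not counted for single livers. These counts are thus not shown to be particular to the 10.

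Cd14 was also set against the receptors of the same liver, a ratio that does not depend on how libraries are scaled. The 7 Toll-like receptors together had 36.2 to 66.1 CPM in DN:HOM, 19.5 to 60.9 CPM in KO:HOM, 6.41 to 13.3 CPM in DN:WT and 4.54 to 16.1 CPM in KO:WT livers. Cd14 amounted to 0.865 to 2.30 times that sum in DN:HOM livers (median 1.29). In KO:HOM livers it was 0.0886 to 0.499 times the sum (median 0.177), much as in DN:WT livers at 0.0882 to 0.364 (median 0.176) and KO:WT livers at 0.140 to 0.522 (median 0.241). Among the 46 livers the receptor sums of both homozygous groups lay above those of their wild-type livers, whereas the ratio of Cd14 to that sum was above the other ranges in the knock-in group alone. DN:HET animals 22 and 4, with receptor sums of 64.5 and 62.0 CPM, had ratios of 0.232 and 0.164. DN:WT animal 10 had a receptor sum of 65.6 CPM and a ratio of 1.4996. DN:HOM animal 12 had a sum of 8.81 CPM and a ratio of 0.246. With these livers neither the sums nor the ratios separated DN:HOM from DN:WT. Per kilobase of exon, Cd14 was the most abundant of the 10 in DN:HOM livers at a mean level of 45.1 CPM per kb, ahead of Myd88 at 5.83 and Ly96 at 3.91. In DN:WT livers the order was Myd88 at 4.62, Ly96 at 2.99 and Cd14 at 1.20 CPM per kb, with Tlr9 lowest at 0.0866. The order rested on 1 library: with animal 10 kept, DN:WT livers averaged 8.15 CPM per kb of Cd14, 4.74 of Myd88 and 3.31 of Ly96, and with animal 12 kept DN:HOM livers averaged 39.6 of Cd14.

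**Figure D3:**
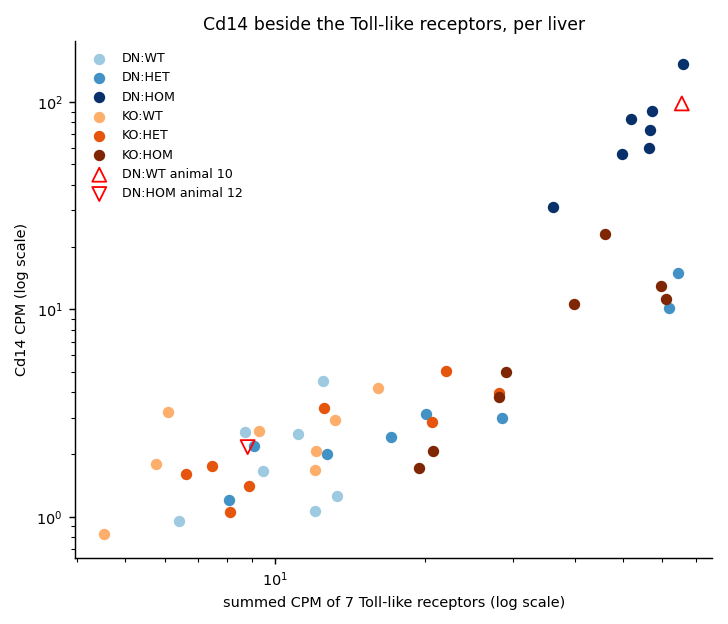
Cd14 level against the summed level of the 7 Toll-like receptors in each liver, both in CPM on log axes. Points are coloured by group and the red triangles are DN:WT animal 10 (pointing up) and DN:HOM animal 12 (pointing down); DN:HOM livers lie above KO:HOM and DN:HET livers with receptor sums as high.

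Macrophage and neutrophil genes moved with the 10 genes. Beside the marker counts below, 29.1% of all genes tested were called higher and 30% lower in DN:HOM livers. In KO:HOM livers these shares were 11.5% and 7.87%. The 8 pan-macrophage markers summed to 817 to 1295 CPM in DN:HOM, 250.5 to 1026 CPM in KO:HOM, 103 to 179 CPM in DN:WT and 70.8 to 206 CPM in KO:WT livers, and 7 of the 8 rose in each homozygous comparison. Lyz2, the lysozyme of myeloid cells, had the largest log2 fold change of these, 4.28 in DN:HOM and 2.57 in KO:HOM. The 8 Kupffer cell markers went the other way, with 7 of 8 lower in DN:HOM and 5 of 8 lower in KO:HOM livers. Clec4f, which marks Kupffer cells, fell by 7.74 on the log2 scale in DN:HOM livers and Cd5l, a secreted scavenger protein, fell by 7.67; Id3, a transcription factor also made elsewhere, was the marker that rose. Recruited and lipid-associated macrophage markers rose for 7 of 8 genes in each study, and their sum was 954 to 1441 CPM in DN:HOM but 83.8 to 303 CPM in KO:HOM livers, against 37.4 to 94.9 and 31.3 to 120 CPM in the wild-type groups. Of the 7 neutrophil markers tested, all rose in DN:HOM and 4 in KO:HOM livers, and the sum of the 8 was 33.6 to 89.0 CPM in DN:HOM, 4.35 to 30.1 CPM in KO:HOM, 3.61 to 6.67 CPM in DN:WT and 1.65 to 6.79 CPM in KO:WT livers. Of 7 B cell markers tested, none rose in any of the comparisons and 2 fell in DN:HOM livers. Ly6g, which defines neutrophils, had 0 reads in the DN:WT, DN:HET, KO:WT and KO:HET groups. T cell markers rose for 4 of 8 genes in DN:HOM and 7 of 8 in KO:HOM livers, with sums of 5.28 to 9.62 and 7.62 to 29.7 CPM against 2.37 to 5.38 and 2.72 to 6.86 CPM. Conventional dendritic cell markers rose for 3 of 7 and fell for 1 in DN:HOM and rose for 5 of 7 in KO:HOM livers, and plasmacytoid ones rose for 2 of the 3 tested in each. Stellate cell markers rose for 7 of 8 and 4 of 8, endothelial markers rose for 2 and fell for 5 of 8 in DN:HOM and rose for 2 and fell for 1 in KO:HOM livers, and hepatocyte markers fell for 5 of 8 and 4 of 8, with 1 higher in DN:HOM. DN:WT animal 10 had sums of 1299 CPM of pan-macrophage, 68.1 of Kupffer cell, 1559 of recruited and lipid-associated macrophage and 66.3 of neutrophil markers, and DN:HOM animal 12 had 108, 250.7, 52.1 and 3.22 CPM. With all 48 livers 23% of all genes were called higher in DN:HOM and 8.79% in KO:HOM, and 3906 and 643 of 15621 were called lower. In that fit 6 of 8 pan-macrophage, 7 of 8 recruited and lipid-associated, 5 of 7 neutrophil and 1 of 8 T cell markers rose in DN:HOM. There 7 of 8 Kupffer cell markers fell. In KO:HOM 6, 5, 2 and 7 of these rose and 4 Kupffer cell markers fell. In that fit no B cell marker fell in DN:HOM livers, 1 of 8 endothelial markers rose in each homozygous group, and stellate cell markers rose for 6 of 8 in DN:HOM. In KO:HOM livers it called none of 3 plasmacytoid and 4 of 7 conventional dendritic cell markers higher, 2 of 8 stellate cell markers higher and 2 of 8 hepatocyte markers lower. The part of these cell types in the levels of the 10 genes was not tested.

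The levels were also set against the pan-macrophage markers of the same liver. For every 100 CPM of these markers there were 4.23 to 6.34 CPM of the 7 receptors in DN:HOM and 6.22 to 9.44 CPM in DN:WT livers, with 5.81 to 11.1 CPM in KO:HOM and 5.72 to 10.3 CPM in KO:WT livers. Without Lyz2 the order of DN:HOM and DN:WT turned, and the values were 18.1 to 27.5 in DN:HOM, 8.99 to 13.2 in DN:WT, 14.3 to 22.6 in KO:HOM (median 17.1) and 8.12 to 16.6 in KO:WT livers (median 12.1). Cd14 reached 3.66 to 13.1 CPM per 100 CPM of the markers in DN:HOM and 0.833 to 2.54 CPM in DN:WT livers. KO:HOM livers had 0.647 to 5.51 CPM (median 1.35) and KO:WT livers 0.930 to 3.97 CPM (median 2.16). Without Lyz2 these ranges were 15.7 to 63.2, 1.17 to 4.10, 1.26 to 11.3 (median 2.96) and 1.48 to 5.58 (median 3.25). Among the 46 livers the DN:HOM range of Cd14 lay above the DN:WT range with either set. DN:WT animal 10 had 7.58 (41.1 without Lyz2) and DN:HOM animal 12 had 2.01 (2.91), so with these livers the ranges overlapped. For the 7 receptors animal 10 had 5.05 (27.4 without Lyz2) and animal 12 had 8.18 (11.8). DN:HET animals 22 and 4 had pan-macrophage sums of 927 and 855 CPM, within the DN:HOM range, and the highest Kupffer cell sums of their group, 678 and 626 CPM against 57.9 to 90.7 CPM in DN:HOM livers. Their recruited and lipid-associated macrophage sums, 331 and 268 CPM, were below all DN:HOM livers. Their neutrophil sums, 45.3 and 33.9 CPM, were within the DN:HOM range, and their T cell sums, 36.1 and 32.4 CPM, were above every DN:HOM and KO:HOM liver. In the DN:HET group 2.23% of all genes were called higher and 0.07% lower. Over this group 3 of 8 pan-macrophage, 4 of 8 recruited and lipid-associated macrophage and 6 of 8 T cell markers rose. So did 3 of 7 conventional dendritic cell, 1 of 8 Kupffer cell and 1 of 7 neutrophil markers, and none in these lists fell. Over all 48 livers edgeR called 2 of the T cell markers and none of the others named here, beside 0.25% of all genes. Their part in the DN:HET levels of the 10 genes was not tested.

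Variation between livers of the same group tied the receptors together. For each gene the deviation of its log2 CPM from the mean of its group was taken in the 46 livers, and these deviations were correlated, as a description of livers that also share RNA quality, cell content and depth. The 21 pairs of Toll-like receptors had Pearson r from 0.40 to 0.87 (median 0.71). Cd14 followed the receptors with r from 0.59 to 0.75. Myd88 followed more loosely (median r of its 9 pairs 0.41) and Ly96 hardly at all (-0.14 to 0.09). Over all 48 livers r was 0.55 to 0.87 among the receptors, 0.64 to 0.86 for Cd14 with them, 0.08 to 0.38 for Ly96, and 0.50 at the median for Myd88.

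The 3 genes outside the 10 that were most like each of them by this measure were taken over the 46 livers. Nearest to Tlr1 were Sirpa (r = 0.91), Evl (0.89) and Ptprc (0.89), the last encoding the leukocyte antigen CD45. Nearest to Tlr2 were Coro1a, Icam1 and Lgals3 (each 0.89). Tyrobp, which encodes the adaptor DAP12 of myeloid receptors, was among the 3 nearest genes of Tlr4 (0.88), Tlr7 (0.85) and Tlr9 (0.85). Tlr4 was followed by Niban1 (0.86) and Lgmn (0.85), Tlr7 also by Inpp5d (0.86) and Ctss (0.85), and Tlr9 also by Il10ra (0.85) and Hk3 (0.85). Tlr13 was nearest to Vcam1 (0.89), Pirb (0.87) and Fcgr3 (0.87), an activating Fc receptor. Tlr8 had lower values, with Dse, Skil and Entpd1 (each 0.77). Cd14 was nearest to Tagln2 (0.86), Hcar2 (0.84), the niacin receptor, and Pkm (0.83), a glycolytic enzyme. Ly96 was nearest to Smim1 (0.72), Ccdc148 (0.65) and B130024G19Rik (0.63), and Myd88 to Map7d1 (0.70), Serping1 (0.70) and Gm17334 (0.69).

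**Figure D4:**
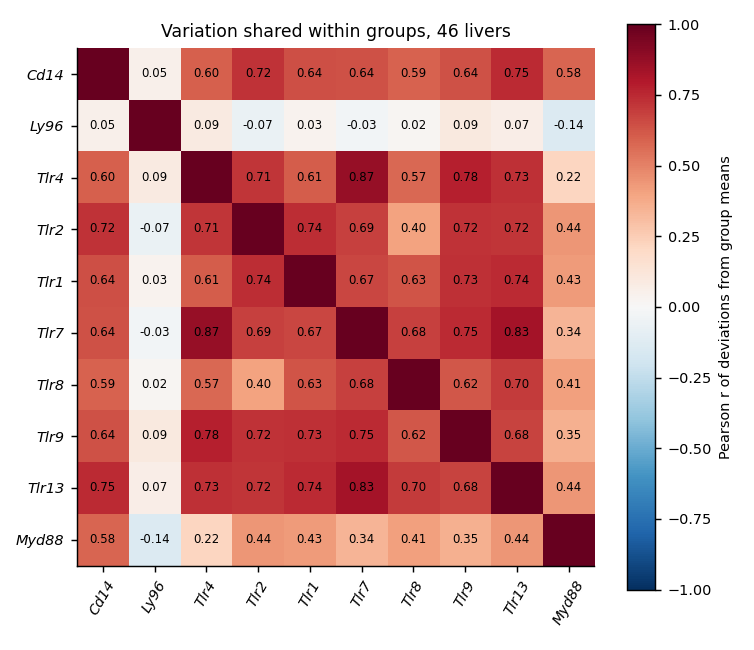
Pearson correlation, over 46 livers, of the deviations of log2 CPM from group means for each pair of the 10 genes; colour runs from -1 (blue) to 1 (red) and each cell prints its r. The 7 Toll-like receptors and Cd14 form a block of positive values, with Ly96 near 0 throughout.

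To set the 10 genes among the rest of the pathway, 77 other genes of Toll-like receptor signalling were listed by role, of which 72 had enough reads to be tested. Like the marker lists, they were chosen with earlier results of these data known. Their counts and adjusted p are thus no independent support that the pathway moved. In DN:HOM livers 37 rose and 13 fell, where 29.1% of all genes were called higher and 30% lower. In KO:HOM livers 38 rose and 1 fell, where 11.5% of all genes were called higher and 7.87% lower. Called in either direction were 59.1% and 19.4% of all genes. The median log2 fold changes of the 72 were 0.60 and 0.42. Over all 48 livers 41 were called in DN:HOM, at least 28 of them higher and at least 12 lower. Of all genes 48% were called there, 23% higher. In KO:HOM livers the same fit called 33 higher and 1 lower, where 8.79% of all genes were higher. None of the 72 was called in KO:HET livers by edgeR or DESeq2, with 4 and 5 at an unadjusted p under 0.05. Of all 15711 genes, 981 and 989 were under 0.05 unadjusted. In DN:HET livers 12 rose (2.23% of all genes), but 3 with all 48 livers (0.25%) and 0 when the 2 groups were fitted alone. That last fit tested 7 of the 12. In it 29 pathway genes had an unadjusted p under 0.05, beside 1532 of all 13869 genes. The shares of all genes given here also stand beside the counts of each list that follows.

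The other 5 Toll-like receptors did not move as one. Tlr6, the surface partner of Tlr2, rose in both studies, by 1.72 in DN:HOM (SE 0.38, adjusted p = 0.00013) and by 1.82 in KO:HOM livers (SE 0.39, adjusted p = 0.00063). Tlr5, the flagellin receptor, fell by 1.20 in DN:HOM livers (SE 0.21, adjusted p = 3.9e-06), from 10.9 to 25.6 CPM in DN:WT to 5.09 to 10.9 CPM, groups that just failed to meet. In KO:HOM livers its log2 fold change was 0.35 (adjusted p = 0.21), and the effect in DN:HOM minus that in KO:HOM was -1.55 (adjusted p = 3.1e-05). Tlr12, a profilin receptor, fell by 0.74 in DN:HOM livers (adjusted p = 0.0016) and rose by 0.80 in KO:HOM livers (adjusted p = 0.002), a difference of -1.54 (adjusted p = 2.6e-05); its fall was not called with scaling by library size alone. Tlr11, its partner, had a log2 fold change of 0.70 in DN:HOM (adjusted p = 0.34) and rose by 3.27 in KO:HOM livers (adjusted p = 4.6e-05), from at most 0.417 CPM in KO:WT to between 0.378 and 4.13 CPM. In DN:HET livers Tlr11 rose by 2.62 (SE 0.56, adjusted p = 0.013), and by 2.57 with all 48 livers (adjusted p = 0.025); the fit of the 2 groups alone left it out for low counts. Tlr3, the receptor of double-stranded RNA, rose by 0.58 in KO:HOM livers (adjusted p = 0.0016) and had 0.29 in DN:HOM livers (adjusted p = 0.078). Its DN:HOM rise was called with upper-quartile scaling and with library size alone. The differences of Tlr5, Tlr11 and Tlr12 were also called with all 48 livers.

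Of 12 genes for receptor accessories and trafficking, 7 rose and 3 fell in DN:HOM livers, and 4 rose in KO:HOM livers. Among the falls, those of Cnpy3 and Hsp90b1 were not called with scaling by library size alone. Tril, an accessory of TLR4, rose by 2.69 in DN:HOM livers (SE 0.43, adjusted p = 7e-07) and had -0.41 in KO:HOM livers (adjusted p = 0.54), a difference of 3.10 (SE 0.60, adjusted p = 6.5e-05). With all 48 livers the DN:HOM rise of Tril was 1.62 and the difference 2.01, both still called. Its levels were low, 0.678 to 1.54 CPM in DN:HOM and 0 to 0.296 CPM in DN:WT livers. Cd180 and Ly86, which encode a receptor related to TLR4 and the MD-1 protein that binds it, rose in both: Cd180 by 1.41 and 2.10 (adjusted p = 0.0081 and 0.00061) and Ly86 by 1.78 and 1.54 (adjusted p = 0.00012 and 0.0023) in DN:HOM and KO:HOM livers. The DN:HOM rise of Cd180 was not called with all 48 livers. Cd36, a fatty acid transporter and co-receptor of TLR2, fell by 1.55 in DN:HOM livers (SE 0.31, adjusted p = 2.8e-05) and had -0.40 in KO:HOM livers (adjusted p = 0.35).

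The 6 adaptors other than Myd88 divided. Ticam2, which encodes the TRAM adaptor of TLR4, rose by 3.15 in DN:HOM (SE 0.50, adjusted p = 6.1e-07) and by 2.72 in KO:HOM livers (SE 0.47, adjusted p = 4.6e-05), from at most 0.467 CPM in DN:WT to between 1.49 and 2.67 CPM in DN:HOM livers. Pik3ap1, which links receptors to phosphoinositide 3-kinase, rose by 1.18 in DN:HOM livers (adjusted p = 1.1e-09), and Tirap, the bridge from TLR2 and TLR4 to MyD88, fell by 0.43 (adjusted p = 0.00013), a fall not called with scaling by library size alone. Both had values in KO:HOM livers, 0.28 and -0.09, that did not pass (adjusted p = 0.13 and 0.52). Of 15 kinases and ubiquitin ligases, 3 rose and 4 fell in DN:HOM and 4 rose in KO:HOM livers, and their median log2 fold changes, 0.06 and 0.01, lay close to those of all genes. Ikbke, an inducible kinase of interferon regulatory factors, rose by 1.02 and 0.71 (adjusted p = 2.2e-05 and 0.0049). Chuk, which encodes IKKα, fell by 0.75 in DN:HOM livers (SE 0.08, adjusted p = 6.6e-11) and had -0.08 in KO:HOM livers (adjusted p = 0.52).

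Of 9 transcription factors of the pathway, 7 rose in DN:HOM and 6 in KO:HOM livers (6 and 3 with all 48 livers), and Irf3 fell in both by 0.23 and 0.22 (adjusted p = 0.0082 and 0.021), calls that were lost in DN:HOM with upper-quartile scaling and in KO:HOM under 5 alternatives, among them upper-quartile scaling, library size and unstranded counts. Relb, a subunit of the noncanonical NF-κB dimer, rose by 2.71 and 1.73 (adjusted p = 2.1e-08 and 0.00031), and its partner Nfkb2 by 2.10 and 0.85 (adjusted p = 6.3e-11 and 0.0023), the latter not called with all 48 livers. Irf8, a factor of myeloid development, rose by 1.56 and 1.87 (adjusted p = 0.00033 and 0.00011). Of 12 inhibitors tested, 7 rose and 2 fell in DN:HOM and 8 rose in KO:HOM livers. Irak3, the kinase-dead brake on IRAK signalling, rose by 3.63 in DN:HOM (SE 0.35, adjusted p = 7.7e-12) and by 2.04 in KO:HOM livers (SE 0.32, adjusted p = 1.6e-05); DN:HOM livers had 8.98 to 13.6 CPM and DN:WT livers 0.477 to 1.14 CPM. Nfkbie, an inhibitor of NF-κB, rose by 2.43 and 1.81 (adjusted p = 3.3e-09 and 1.8e-05). Socs1, a brake on cytokine receptors, rose by 4.42 in KO:HOM livers (SE 0.61, adjusted p = 1.8e-06), had 1.09 in DN:HOM livers (adjusted p = 0.1, called under some alternatives), and differed between the studies by -3.33 (adjusted p = 0.0022).

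Of 13 cytokine and effector genes tested, 10 rose in DN:HOM and 11 in KO:HOM livers (5 and 10 with all 48 livers), with median log2 fold changes of 2.75 and 2.44. Lcn2, an iron-binding defence protein of hepatocytes and neutrophils, rose by 4.76 in DN:HOM (SE 0.71, adjusted p = 1.9e-07) and by 2.44 in KO:HOM livers (SE 0.60, adjusted p = 0.0026). Its levels were 311 to 1034 CPM in DN:HOM and 9.37 to 59.98 CPM in DN:WT livers. Nos2, encoding inducible nitric oxide synthase, rose by 7.13 in KO:HOM livers (SE 1.06, adjusted p = 7.3e-06), where it ranged from 0.189 to 34.5 CPM, and had 3.19 in DN:HOM livers (SE 1.56, adjusted p = 0.076). Ptgs2, encoding cyclooxygenase-2, rose by 5.25 in KO:HOM (adjusted p = 4.3e-05) and by 2.75 in DN:HOM livers (adjusted p = 0.025), and Acod1, which makes itaconate, by 4.11 and 2.66 (adjusted p = 0.00067 and 0.013); with all 48 livers neither DN:HOM rise was called. Il6, Il10, Il12b and Ifnb1 had too few reads to be tested.

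**Figure D5:**
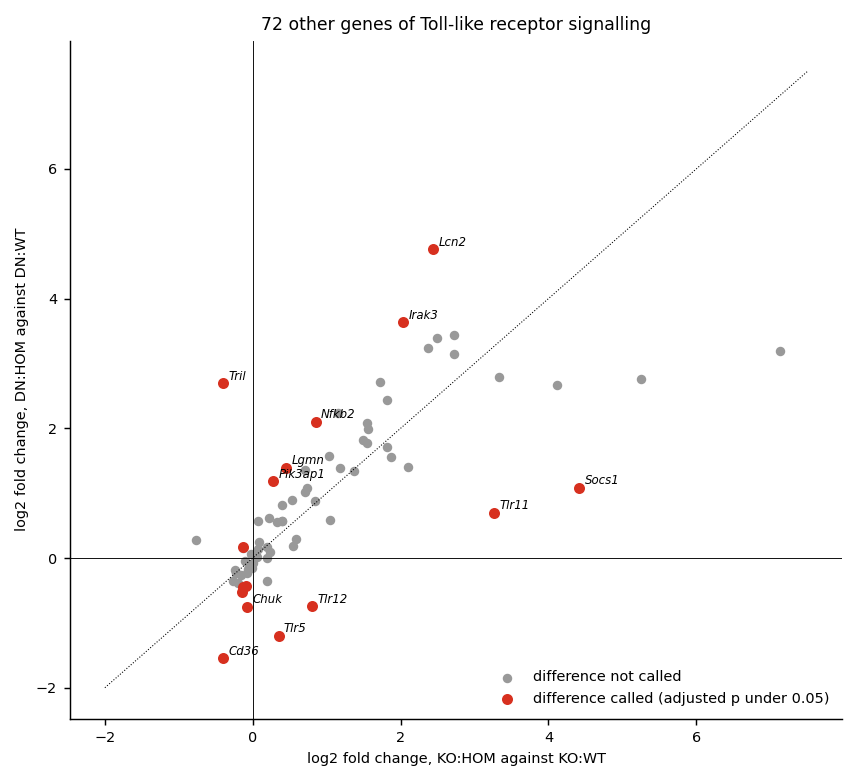
Log2 fold change of the 72 tested pathway genes in DN:HOM (vertical) and KO:HOM (horizontal) livers, each against its own wild-type group, over 46 livers. Red marks the 16 genes whose change differed between the studies, named where the difference was at least 0.6 on the log2 scale, and the dotted line marks equal change; Tlr5, Tlr11, Tlr12 and Socs1 lie below it and Tril, Irak3 and Lcn2 above.

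In all, 16 of the 72 genes changed by different amounts in the 2 studies, 7 more upward in DN:HOM and 9 more downward, where 34.7% of all genes differed. Including animals 10 and 12, 10.5% of all genes differed and 8 of the 72 were called. These were Tril, Tlr5, Tlr11, Tlr12, Chuk and Socs1, which were among the 16, and Nos2 and Ptgs2. The differences of Irak3, Lcn2, Nfkb2, Cd36, Lgmn, Pik3ap1, Cnpy3, Irak1, Rela and Tirap were not called with animals 10 and 12 included.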

How the data were processed

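Liver RNA of 48 mice was sequenced as stranded, poly(A)-selected libraries. The authors aligned reads with STAR 2.5.0a to GRCm39 (annotation release 104) and deposited raw counts per gene, unnormalised, for both strands and for each; the counts of the strand carrying 6.97 to 8.62 times the reads of the other were used. Between 24 and 35% of reads named no gene and were left out. Each mouse is 1 replicate, and no 2 livers of a group held identical counts.

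Counts were fitted with edgeR 4.0.16 (R 4.3.3; filterByExpr, TMM scaling, quasi-likelihood test on 6 group means, Benjamini-Hochberg adjustment over 15711 genes, threshold 0.05) over 46 livers, without DN:WT animal 10 and DN:HOM animal 12. CPM are scaled by TMM factors; log2 CPM for correlations used a prior count of 2. On simulated data the fit of DN:HOM against DN:WT recovered 64% of 98 genes given a log2 shift of 1 and 93% of 98 given 2, and called 11 of 15189 left unshifted. The simulated shifts were set up and down in equal number and spared most genes. In the real comparison 59.1% of genes were called, so these rates need not hold there. Alternatives were all 48 livers, DESeq2 1.42.0, upper-quartile scaling, library size alone, no low-count filter, unstranded counts, each study alone, dropping the 2 shallow livers, a minimum log2 fold change of 1, and leaving out each liver in turn in fits of the compared groups alone.

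The 10 genes, the 77 pathway genes and the marker lists (8 genes each) were chosen with earlier results of these data known. Named were the 10, up to 4 genes per pathway list by size of change in a homozygous comparison (and others where a list or a difference between studies needed them), the 3 genes nearest each of the 10 among genes with a mean of at least 1 CPM, Nr1h3 and markers. Gene positions come from a GENCODE annotation of GRCm39, in which 54749 of 55416 identifiers were found, and upstream sequences from RefSeq (GRCm38.p6).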

Additional observations from a re-analysis of the deposited data

Results flagged for a closer look

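Single livers stood apart within their group, by Dixon's ratio of the gap beside the extreme liver to the range of the group. In DN:WT, with animal 10 counted in, that liver stood above the others in Cd14 (ratio 0.963), Tlr2 (0.902), Tlr13 (0.853), Tlr1 (0.839), Tlr8 (0.718), Tlr9 (0.716), Tlr4 (0.708) and Tlr7 (0.676). In DN:HOM, with animal 12 counted in, that liver stood below the others in Tlr7 (0.6) and Tlr13 (0.596). DN:HOM animal 34 stood above its group in Tlr4, at a ratio of 0.779 among 7 livers and 0.611 with animal 12. KO:HOM animal 11 stood above its group in Tlr8 (0.576) and KO:HET animal 9 in Tlr13 (0.53). Chance alone flags about 1 in 20 groups, and 80 combinations of gene and group were looked at, of which 14 were flagged. The 80 are not independent, since they hold DN:WT and DN:HOM with and without animals 10 and 12, and genes that vary together. Whether the 14 exceed chance therefore cannot be read from this count.

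Changes that differed between the studies (DN:HOM effect minus KO:HOM effect, log2, edgeR's test of the difference) were 3.10 for Tril, 2.32 for Lcn2, 1.60 for Irak3, 1.25 for Nfkb2, 0.94 for Lgmn, 0.91 for Pik3ap1 and 0.31 for Rela. The difference of Cd14, 3.35, is a description, since the gene was chosen on these values. Those in the other direction were -3.33 for Socs1, -2.57 for Tlr11, -1.55 for Tlr5, -1.54 for Tlr12, -1.15 for Cd36, -0.68 for Chuk, -0.39 for Cnpy3, -0.34 for Tirap and -0.31 for Irak1. Colony and study divide the livers as the allele does and cannot be told apart from it.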

How the results depend on the processing

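No log2 fold change of the 10 genes that passed the threshold changed sign under any alternative run. Over all genes 9292 were called in DN:HOM, 3048 in KO:HOM, 361 in DN:HET, 3 in KO:HET and 5456 for the difference between the studies; of the pathway genes 50, 39, 12, 0 and 16. With all 48 livers these were 2016 in KO:HOM, 39 (pathway 3) in DN:HET and 1636 (pathway 8) for the difference. DN:HET counts were 239 (7) with each study alone, 617 (19) with DESeq2 and 5 (0) with the 2 groups alone, a setting added after the data were seen, as were marker lists and correlations with all 48 livers. KO:HET counts were 8 without the low-count filter, 10 with DESeq2 and 1 with its groups alone. A log2 fold change of at least 1 left 3610 (30) in DN:HOM, 1191 (25) in KO:HOM and 2200 (9) for the difference. Library size alone called 29 pathway differences; it moved the median log2 fold change of all genes to 0.42 in DN:HOM and 0.31 for the difference, and split the DN:HOM calls into 9283 higher and 1738 lower, against 4579 and 4713, and the KO:HOM calls into 2622 and 437, against 1811 and 1237. Leaving out each liver in turn gave 8848 to 9400 (48 to 53) in DN:HOM, 1729 to 2846 (25 to 37) in KO:HOM, 0 to 7 (0 to 0) in DN:HET and 1 to 2 (0 to 0) in KO:HET, with the lowest KO:HOM counts without KO:HOM animal 26. Tlr4 was called in KO:HOM livers without KO:WT animal 14, and Myd88 without KO:HOM animal 22, and both with library size alone, which also called the differences of Ly96 and Myd88 between the studies. The cause of these shifts was not tested. No paired analysis was possible because animal numbers name mice of separate studies and are not shared within one. Depth limited Tlr9, with 0 to 8 reads in KO:WT livers, where small differences were not detectable.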
